A study of Mus musculus with 6 samples.

Results

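Prostaglandins are lipid signals that cells make from arachidonic acid and that act on receptors at the cell surface. The 10 genes described here cover that chain: the cyclooxygenases Ptgs1 and Ptgs2, the prostaglandin E synthases Ptges and Ptges2, the dehydrogenase Hpgd that begins prostaglandin breakdown, and the receptors Ptger2, Ptger3, Ptger4, Ptgfr and Ptgir. They were taken by gene symbol, as every probe set for which the platform annotation gives that symbol and no other. This gave 19 probe sets for 9 genes, of 34945 probe sets with 1 symbol and 18193 genes on the arrays. Ptgs1 is not analysed here.

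The samples are uterine horns of ovariectomized females, 8 weeks old and of mixed background, each run on its own expression array. A group of 3 arrays carries the label P4, the usual abbreviation of progesterone, and the other group of 3 arrays carries the label Oil, a common carrier of steroids. All animals were GATA2 f/f, a notation used for a floxed allele on both chromosomes, and the labels name no Cre, no dose and no time after treatment. The question put to the members is whether their transcripts differ between hormone and carrier. The labels do not tie each array to its own animal. The p-values therefore reflect only how these arrays vary, and that variation may be technical.

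Cyclooxygenases turn arachidonic acid into an unstable intermediate, from which terminal synthases make prostaglandin E2, F2-alpha, D2, prostacyclin or thromboxane. In the uterus these products are known for roles in implantation, the decidual reaction and contraction of the muscle wall. Of the receptors for prostaglandin E2, those encoded by Ptger2 and Ptger4 couple mainly to the G protein that stimulates cyclic AMP production, and that encoded by Ptger3 mainly to the one that inhibits it. Ptgfr encodes the receptor of prostaglandin F2-alpha and Ptgir that of prostacyclin.

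Levels are linear intensities as deposited, with the SD of 3 arrays beside each mean. Differences are on the log2(intensity + 16) scale, P4 minus Oil, with the SE of a limma fit over all genes and a Benjamini-Hochberg adjusted p, called under 0.05. That scale understates the change of dim genes. In such tissue samples, fewer cells of a type and less RNA per cell cannot be told apart.

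Ptger3 rose after P4, with 590.3 ± 108 in P4 horns and 198 ± 14.5 in Oil horns, a log2 difference of 1.49 ± 0.14 (limma adjusted p 0.000988). Hpgd fell, with 649 ± 53.7 in P4 horns and 942 ± 22.6 in Oil horns (-0.53 ± 0.08, adjusted p 0.00732). Ptges2 rose slightly, with 337 ± 27.7 in P4 horns and 263 ± 10.6 in Oil horns (0.34 ± 0.09, adjusted p 0.0495), a call close to the threshold. The other 6 measured genes did not pass. Among them Ptgs2 had 1 Oil array far above the other two.

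The promoters of the 3 genes that passed are shown so that the changed members can be placed in the genome. The sequences are from RefSeq, assembly GRCm38.p6, and run 5′ to 3′ on the strand of the gene from 250 bases before to 50 bases after the start of the gene. Capitals mark the bases from that start onwards.
Ptger3, chr3:157566626-157566925, + strand: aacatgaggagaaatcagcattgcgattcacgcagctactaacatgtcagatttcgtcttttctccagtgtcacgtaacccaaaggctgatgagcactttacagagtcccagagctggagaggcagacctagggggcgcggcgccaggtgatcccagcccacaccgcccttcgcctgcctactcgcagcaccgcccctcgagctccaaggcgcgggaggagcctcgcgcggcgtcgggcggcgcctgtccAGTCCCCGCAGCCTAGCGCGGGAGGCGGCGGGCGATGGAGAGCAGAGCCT
Hpgd, chr8:56294302-56294601, + strand: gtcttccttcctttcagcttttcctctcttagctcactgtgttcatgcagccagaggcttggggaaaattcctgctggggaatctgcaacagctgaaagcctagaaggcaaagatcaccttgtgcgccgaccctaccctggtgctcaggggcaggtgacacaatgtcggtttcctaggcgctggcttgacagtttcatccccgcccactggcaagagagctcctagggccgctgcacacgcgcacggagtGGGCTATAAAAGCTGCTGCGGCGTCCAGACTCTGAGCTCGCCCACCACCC
Ptges2, chr2:32395640-32395939, + strand: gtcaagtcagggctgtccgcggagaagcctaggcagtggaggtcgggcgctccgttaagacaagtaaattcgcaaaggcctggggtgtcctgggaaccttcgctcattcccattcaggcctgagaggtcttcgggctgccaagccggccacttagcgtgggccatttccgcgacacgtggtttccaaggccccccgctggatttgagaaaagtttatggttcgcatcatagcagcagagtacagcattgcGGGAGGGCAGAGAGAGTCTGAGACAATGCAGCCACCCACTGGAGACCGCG

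All 10 genes had a promoter in that table, with a GC content from 37.7% for Ptger2 to 67% for Ptger4, against a median of 52.7% over 32851 promoters. Ptger3 had 64%, Hpgd 58% and Ptges2 58.7%. Both strands were searched for short words. The GATA word, which is GATA with A or T before it and A or G after it, was found in 1 of the 10, Ptger2, where TGATAA begins 200 bases before the start. Of all promoters 29.8% held it. TGTTCT, a word of steroid receptor elements, was in the promoters of Ptges, Ptgs1 and Ptger2, 3 of 10, against 18.97% of all promoters. TGACG, a word of cyclic AMP elements, was in that of Ptgs2 alone among the 10 and in 20.8% of all promoters. TATAAA was in that of Hpgd alone among the 10, where it begins 4 bases after the start, and in 13.6% of all promoters. In the 3 windows printed above no GATA word, TGTTCT or TGACG occurred, which says only that these letters are not in these 300 bases.

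The arrays were close to each other in overall brightness, with median intensities from 117 to 123, and their log2 values correlated at 0.972 to 0.992. Markers of the tissue's layers were bright on every array, with sums of 43081 to 51826 in P4 horns and 45549.8 to 50413 in Oil horns for 10 stroma markers, 51899 to 60278 in P4 horns and 55666 to 56579 in Oil horns for 10 smooth muscle markers and 13569 to 21070.1 in P4 horns and 17058 to 19799 in Oil horns for 10 epithelium markers. Single stroma markers were called in both directions by limma, and of 10 epithelium markers 1 was called higher and 0 lower. Hoxa11 (0.89 ± 0.08, adjusted p 0.000860), Hand2 (0.50 ± 0.10, 0.0165) and the epithelial Cldn3 (1.21 ± 0.12, 0.00124) were higher after P4, and Lum (-0.90 ± 0.18, 0.0156) was lower. Among 11 lists of cell type markers, the endothelial list was the 1 whose summed intensity did not overlap between groups, at 5661 to 5692 in P4 horns and 6438 to 7871 in Oil horns over 8 genes. Its mean log2 level differed by -0.33, with p = 0.1 in a 2-sided exact permutation test over the arrays, below which 3 against 3 cannot go. That was the lowest p of the 11 lists and was not adjusted for their number, so 1 such list can arise without a difference. Of its genes 2, Cldn5 (-0.92 ± 0.16, limma adjusted p 0.00923) and Tek (-0.38 ± 0.10, adjusted p 0.0404), were lower after P4, and with the replicate block also Pecam1 (-0.34 ± 0.14, adjusted p 0.163, and 0.0229 with the block). The marker genes named with values were chosen for mention after their values were seen.

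Over all 18193 genes, 6.08% were higher and 6.94% lower after P4, 13.0% in all. Of the 9 measured prostaglandin genes 2 were higher and 1 lower. These 3 were also the ones whose groups did not overlap, a property of 31.8% of all genes. The median log2 difference of the 9 was 0.22, beside -0.01 for all genes. Of all calls 46.7% were higher, and 74.5% when arrays were scaled to the hybridisation controls, a scaling that shifted the all-gene median by 0.11 log2. The same 3 prostaglandin genes passed in the same direction under that scaling.

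**Figure D1:**
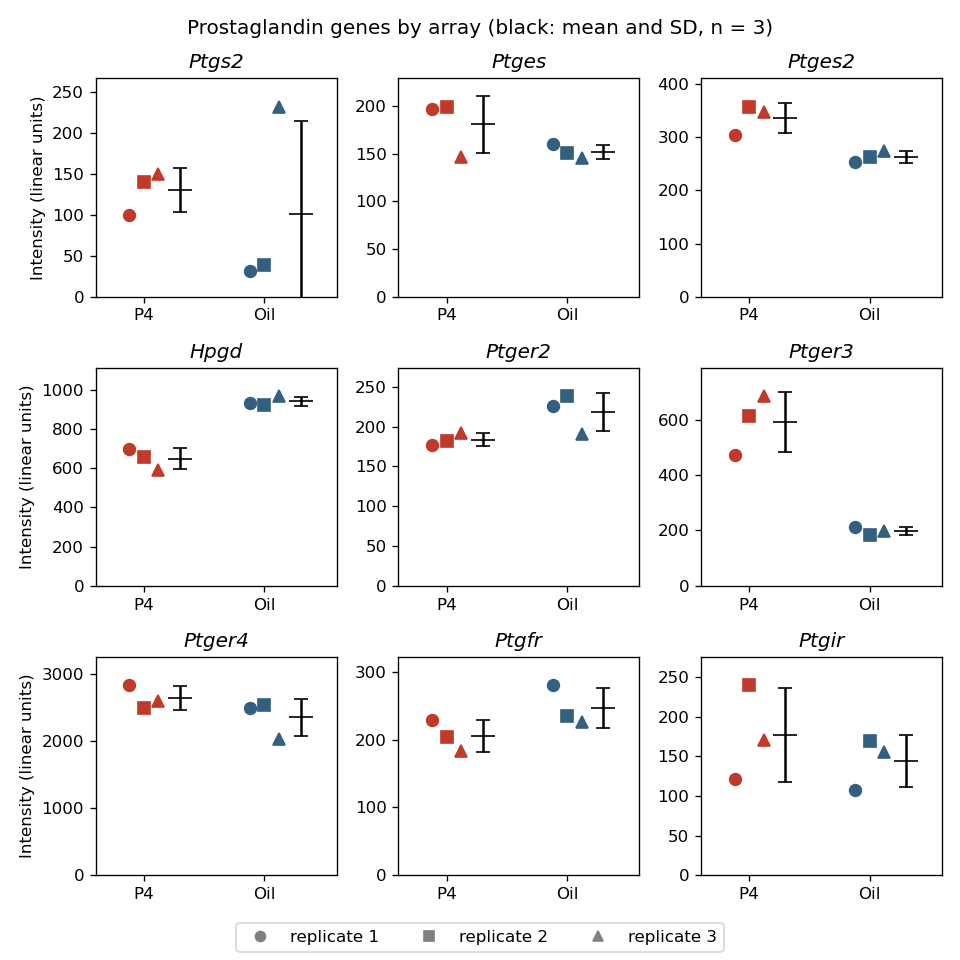
Intensity of the 9 measured prostaglandin genes in linear units, with P4 arrays at the left and Oil arrays at the right of each panel; each symbol is 1 array, its shape gives the replicate number, and the black mark and bar are the mean and SD of 3 arrays (the Oil bar of Ptgs2 is clipped at 0). The groups lie apart for Ptger3, Hpgd and Ptges2, and Oil replicate 3 stands at 232 for Ptgs2, above all 3 P4 arrays.

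On the side of synthesis, Ptgs2, the inducible cyclooxygenase, read 100.1, 140.2 and 150.4 in P4 horns, and 31.5, 38.3 and 232 in Oil horns. All 3 P4 arrays lay above Oil replicates 1 and 2 and below Oil replicate 3. The log2 difference was 0.75 ± 0.56 (95% interval -0.56 to 2.05, limma adjusted p 0.481). Without Oil replicate 3 it was 1.51 and passed (limma adjusted p 0.00404), and without any other single array it did not pass. By replicate number the difference was 1.29, 1.52 and -0.58. The other probe set of Ptgs2 was dim, with 39.1 ± 1.69 in P4 horns and 31.2 ± 4.61 in Oil horns, at percentile 12.7 of brightness over probe sets. Its groups did not overlap, and its log2 difference of 0.23 ± 0.10 did not pass (limma adjusted p 0.241 over all probe sets).

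Granulocyte and macrophage markers were also unequal between arrays. The summed intensity of 9 granulocyte markers was 988, 8147 and 16286 in P4 horns, and 1052, 1091 and 11832 in Oil horns. That of 9 macrophage markers was 3678, 7949.8 and 10325 in P4 horns, and 3687, 5075 and 9207 in Oil horns. Oil replicate 3 was thus the highest Oil array for both lists and for Ptgs2. Most of its granulocyte sum came from Ltf (5076), S100a8 (2950) and S100a9 (2738). Csf3r (306) and Cxcr2 (206) were also highest there among the Oil arrays. Ngp, Camp, Elane and Mpo read 157, 97.3, 186 and 115 on that array. These genes were highest on P4 replicate 2 (514, 379, 240.0 and 194). P4 replicate 1, with the lowest sum of the 6 arrays for both lists, had Ptgs2 at 100.1, above the 31.5 and 38.3 of Oil replicates 1 and 2. The part of granulocytes and macrophages in the Ptgs2 values was not tested. The mean log2 level differed by 0.71 between P4 and Oil for granulocyte markers (p = 0.7, 2-sided exact permutation test over the arrays) and by 0.15 for macrophage markers (p = 0.9, same exact test).

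**Figure D2:**
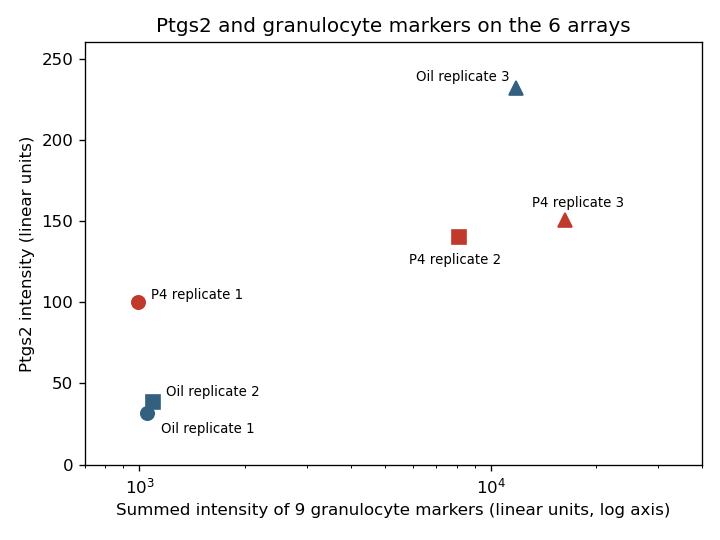
Ptgs2 intensity (vertical, linear units) against the summed intensity of 9 granulocyte markers (horizontal, log axis), 1 point for each of the 6 arrays, P4 and Oil in different colours. At the 3 low sums the P4 array reads 100.1 and the Oil arrays 31.5 and 38.3. At high sums the P4 arrays read 140.2 and 150.4 and the Oil array 232. Most of the high sums comes from S100a8, S100a9 and Ltf.

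Ptges encodes the inducible membrane synthase of prostaglandin E2. Its brightest probe set read 198, 199 and 147 in P4 horns, and 159.9, 151 and 146 in Oil horns. P4 replicate 3 fell within the Oil range, and the log2 difference of 0.22 ± 0.12 did not pass (95% interval -0.07 to 0.51, limma adjusted p 0.326). Its 3 probe sets differed in how far the groups lay apart. The dimmest of them had 131, 127 and 109 in P4 horns, and 95.2, 99.4 and 88.0 in Oil horns, without overlap. Its log2 difference of 0.32 ± 0.10 had a limma adjusted p of 0.0863 over all probe sets, and 0.0365 with the replicate number as a block. The last set overlapped, with a difference of 0.07 ± 0.12.

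Ptges2 encodes another membrane-associated synthase, usually described as expressed at a steady level. It read 305, 357 and 348 in P4 horns, and 253, 263 and 274 in Oil horns. Every P4 array lay above every Oil array. The log2 difference of 0.34 ± 0.09 (95% interval 0.12 to 0.55) had a limma adjusted p of 0.0495 over genes. When each of 45037 probe sets was tested as its own feature, the same values had an adjusted p of 0.0708, and 0.02997 with the replicate block. The call over genes was lost when any of 5 of the 6 arrays was left out (limma adjusted p up to 0.164), P4 replicate 1 being the exception. It was also lost with a pseudocount of 50 (0.0512).

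On the side of breakdown, Hpgd encodes the dehydrogenase that oxidises prostaglandins E2 and F2-alpha to products with little activity at their receptors. Its main probe set read 699, 657 and 592 in P4 horns, and 934, 924 and 968 in Oil horns. The lowest Oil array stood well above the highest P4 array. The log2 difference was -0.53 ± 0.08 (95% interval -0.72 to -0.33), with a limma adjusted p of 0.00732. By replicate number it was -0.41, -0.48 and -0.69, and with any 1 array left out it ran from -0.58 to -0.47 and stayed past the threshold. Some markers of other cell types were lower in P4 horns as well, and others were higher. The summed endothelial list was lower without overlap, as given above, and 3 of its 8 genes were called lower with the replicate block. Under that block 11.6% of all genes were lower. Of 10 epithelium markers 1 was higher and 0 lower by limma, beside 6.08% and 6.94% of all genes. With the block 1 was higher and 4 lower, beside 9.29% and 11.6%. The 4 were Elf3 (-0.65 ± 0.20, adjusted p 0.0780, and 0.00214 with the block), Krt18 (-0.62 ± 0.19, 0.0673 and 0.0310), Krt19 (-0.34 ± 0.10, 0.0721 and 0.0147) and Epcam (-0.40 ± 0.30, 0.469 and 0.0465). Of the 10 epithelium markers 4 had positive differences, with Cldn3 (1.21 ± 0.12) the 1 called higher. The summed epithelium list overlapped between the groups. Of 10 stroma markers 2 were higher and 1 lower by limma, and 4 and 2 with the block. The mean log2 level of 4 fat cell markers differed by -0.48 (p = 0.2, 2-sided exact permutation test over the arrays), and their summed intensities overlapped. By limma 0 of the 4 were called, 1 having a positive difference, and with the block 0 were higher and 2 lower. The 2 were Adipoq (-1.38 ± 0.41, adjusted p 0.0672, and 0.00273 with the block) and Retn (-0.49 ± 0.18, 0.122 and 0.00902). The part of these cell types in the Hpgd difference was not tested, nor was it for Ptger3.

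The main probe set of Hpgd carries the suffix _s, which Affymetrix gave to sets that can match more than 1 transcript or gene. The other set read 72.2, 72.2 and 59.0 in P4 horns, and 74.9, 71.5 and 76.9 in Oil horns. It overlapped between groups and had a log2 difference of -0.11 ± 0.10 (limma adjusted p 0.597). The Hpgd call comes from 1 of its 2 probe sets. The other set stood at percentile 33.8 of brightness over probe sets, and the main set at 88.1.

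Among the receptors, Ptger3 read 473, 613 and 685 in P4 horns, and 212, 183 and 198 in Oil horns. The lowest P4 array lay far above the highest Oil array. The log2 difference of 1.49 ± 0.14 (95% interval 1.17 to 1.81), a fold of 2.81 on that scale, had a limma adjusted p of 0.000988. By replicate number it was 1.10, 1.66 and 1.71. With any 1 array left out it ran from 1.38 to 1.64, with adjusted p up to 0.00884. With both arrays numbered 2 left out it was 1.41 and missed the threshold (0.0577), as did Hpgd (-0.55, 0.117), in a fit of 4 arrays that called 171 genes in all.

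The Ptger3 call also comes from 1 of 2 probe sets. The set that rose has the suffix _a, for sets that match several transcripts of a gene. The other set read 97.5, 62.5 and 59.8 in P4 horns, and 88.5, 70.8 and 66.2 in Oil horns. These groups overlapped, and the log2 difference of -0.05 ± 0.17 did not pass (limma adjusted p 0.920). That set stood at percentile 34.7 of brightness over probe sets, and the set that rose at 73.4. The receptor is known to occur in splice forms that differ in the intracellular tail, and RefSeq lists 4 transcripts for the gene. Which of them each probe set reads is not stated in the files or labels at hand.

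The receptors that raise cyclic AMP did not pass. Ptger4, for prostaglandin E2, read 2831, 2487 and 2601 in P4 horns, and 2485, 2538 and 2033 in Oil horns. The groups overlapped, and the log2 difference was 0.17 ± 0.10 (95% interval -0.07 to 0.41, limma adjusted p 0.356). Its other probe set had 292 ± 59.0 in P4 horns and 237 ± 23.8 in Oil horns and did not pass either (adjusted p 0.370 over probe sets). Ptger2 read 177, 182 and 192 in P4 horns, and 225, 238 and 191 in Oil horns, where P4 replicate 3 lay above Oil replicate 3. Its difference of -0.23 ± 0.10 (95% interval -0.46 to 0.01) had a limma adjusted p of 0.206.

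Ptgir, the prostacyclin receptor, varied widely within each group. It read 122, 240.0 and 170.3 in P4 horns, and 108, 169 and 156 in Oil horns. In each replicate number the P4 array was the higher, by 0.15, 0.46 and 0.12 log2. The difference of 0.24 ± 0.24 did not pass (95% interval -0.31 to 0.80, limma adjusted p 0.603).

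Ptgfr, through which prostaglandin F2-alpha contracts the uterus, had 5 probe sets. The brightest read 229, 204 and 183 in P4 horns, and 280.4, 235 and 226 in Oil horns, where P4 replicate 1 lay between the Oil arrays. Its log2 difference was -0.25 ± 0.12 (95% interval -0.52 to 0.02, limma adjusted p 0.229). Of the other probe sets 3 had differences from -0.32 to -0.24, and the groups of 1 of these 3 did not overlap. The dimmest of the 5 differed by 0.01 ± 0.10. None passed over probe sets, with limma adjusted p from 0.198 to 0.962. The intervals of the 6 genes that did not pass all include 0 and do not show that these genes were equal in the groups.

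Of all 19 probe sets, 1 was higher and 1 lower at a limma adjusted p under 0.05 over probe sets, where 8.62% of the 45037 tested were called in either direction. With the replicate block 3 were higher, the added ones being those of Ptges2 and the dimmest Ptges set, where 14.8% of all probe sets were called in either direction under that block.

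**Figure D3:**
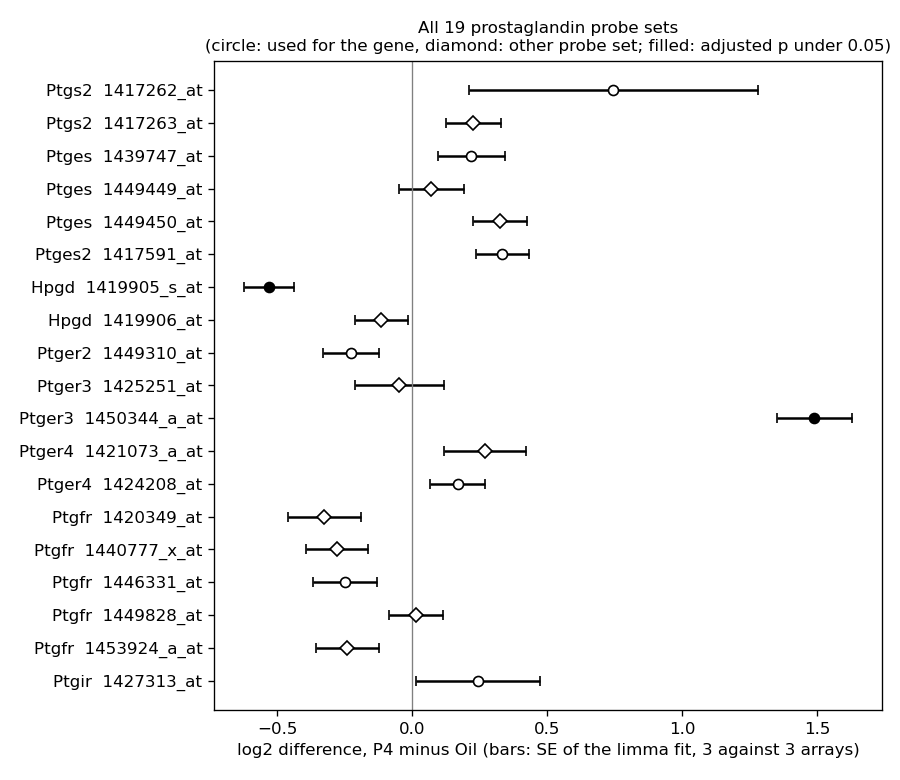
Log2 difference, P4 minus Oil, of all 19 prostaglandin probe sets, with the SE of the limma fit over all probe sets as bars; filled symbols passed the threshold. A Ptger3 set lies at 1.49 while the other Ptger3 set lies at -0.05, and the filled Hpgd set lies at -0.53.

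The other genes of the pathway were taken from 6 lists that held 89 genes, of which 83 were measured. Of these 6 were higher and 3 lower by limma over all genes, beside 6.08% and 6.94% of all genes, and their median log2 difference was -0.04. With the replicate block 9 were higher and 5 lower, beside 9.29% and 11.6% of all genes under that block. At the step before the cyclooxygenases, where phospholipases release arachidonic acid from membranes, 2 of 17 genes were higher and 0 lower. Pla2g10, a secreted phospholipase A2, read 2225, 966 and 1046 in P4 horns, and 412, 414 and 282 in Oil horns. Every P4 array was above every Oil array, with a log2 difference of 1.80 ± 0.31 (limma adjusted p 0.00907). Pla2g3, another secreted form, rose by 0.57 ± 0.12 (adjusted p 0.0223), a call lost without P4 replicate 2 or Oil replicate 1 or 2 (up to 0.0865). Pla2g4a, the cytosolic phospholipase A2, read 1201, 689.7 and 539 in P4 horns, and 1139, 1049.8 and 942 in Oil horns. P4 replicate 1 was the highest array of all and the other P4 arrays were the lowest, and the difference of -0.44 ± 0.26 did not pass (limma adjusted p 0.342).

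Among 9 further prostanoid synthases 0 were higher and 1 lower, and 1 and 3 with the replicate block. Of all genes 6.08% were higher and 6.94% lower, and 9.29% and 11.6% with the block. Cbr1, a carbonyl reductase that can convert prostaglandin E2 to F2-alpha, fell to 597 ± 27.2 in P4 horns, against 799 ± 75.1 in Oil horns (-0.41 ± 0.09, limma adjusted p 0.0251). Its call was lost without P4 replicate 2 or 3 or Oil replicate 1 or 2 (up to 0.0963). Hpgds, the hematopoietic prostaglandin D synthase, read 55.5, 67.0 and 60.9 in P4 horns, and 104, 139.7 and 75.0 in Oil horns. The groups did not overlap (-0.63 ± 0.18, limma adjusted p 0.0611, and 0.0156 with the block). Ptgds, the other prostaglandin D synthase, had 326 ± 18.3 in P4 horns and 262 ± 13.7 in Oil horns (0.30 ± 0.09, adjusted p 0.0573, and 0.0480 with the block). Prxl2b, which reduces prostaglandin H2 to F2-alpha, had 285 ± 10.4 in P4 horns and 368 ± 37.4 in Oil horns, without overlap (-0.35 ± 0.10, adjusted p 0.0509, and 0.0226 with the block). Ptgis, the prostacyclin synthase, had 1126 ± 269 in P4 horns and 1207 ± 110 in Oil horns (-0.12 ± 0.16, adjusted p 0.724). Tbxas1, the thromboxane synthase, had 70.9 ± 10.7 in P4 horns and 71.8 ± 7.68 in Oil horns (adjusted p 0.953).

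Of 7 transport and breakdown genes 1 was higher and 0 lower, and 2 and 0 with the block. The shares of all genes were 6.08% higher and 6.94% lower, and 9.29% and 11.6% with the block. Slco3a1, an organic anion transporter that can carry prostaglandins, read 553, 744 and 719 in P4 horns, and 277, 234 and 311 in Oil horns. The groups did not overlap, and its brightest probe set rose by 1.24 ± 0.14 log2 (limma adjusted p 0.00222 over genes). All 3 of its probe sets rose, by 1.24, 1.25 and 1.31 log2. Slco2a1, the transporter that takes prostaglandins up for breakdown, had 255 ± 45.9 in P4 horns and 231 ± 70.6 in Oil horns (0.16 ± 0.21, adjusted p 0.719). Abcc4, which exports prostaglandin E2, had 1146 ± 107 in P4 horns and 870.0 ± 132 in Oil horns, without overlap (0.40 ± 0.12, adjusted p 0.0707, and 0.00829 with the block).

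None of 7 other receptor genes passed by limma, in either direction and with the block too, with 0 higher and 1 lower at an unadjusted p under 0.05, beside 11.9% and 14.7% of all genes. That 1 was Ptgdr, a prostaglandin D2 receptor, at 135, 129.5 and 128 in P4 horns, and 150.5, 148 and 156 in Oil horns (-0.19 ± 0.08, adjusted p 0.177). Ptger1, for prostaglandin E2, had 59.3 ± 8.62 in P4 horns and 56.1 ± 2.22 in Oil horns (adjusted p 0.816). Tbxa2r, for thromboxane, had 181 ± 14.1 in P4 horns and 189 ± 19.5 in Oil horns (adjusted p 0.805).

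Of 13 lipoxygenase and leukotriene genes 1 was higher and 0 lower, beside 6.08% and 6.94% of all genes. This was Alox12, a lipoxygenase that also uses arachidonic acid, with 256, 202 and 202 in P4 horns, and 129, 148 and 133 in Oil horns (0.62 ± 0.11, limma adjusted p 0.0120). Its call was lost without Oil replicate 1 (0.0542) and with the mean of its probe sets (0.0618). Platelets are a known source of Alox12, and 6 platelet markers summed to 652 to 793 in P4 horns and 719 to 854 in Oil horns. Of the 6, Itga2b was lower after P4 (-0.61 ± 0.11, limma adjusted p 0.0126), and the other 5 had positive differences that did not pass. The part of platelets in the Alox12 values was not tested.

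Among 30 G proteins and cyclic AMP enzymes, the machinery that the receptors act on, 2 were higher and 2 lower, and 3 and 2 with the block. These counts are near the shares of all genes, 6.08% higher and 6.94% lower, and 9.29% and 11.6% with the block. The adenylyl cyclase Adcy6 fell to 1048 ± 45.3 in P4 horns, against 1399 ± 27.6 in Oil horns (-0.41 ± 0.07, limma adjusted p 0.00936), a call lost without Oil replicate 2 (0.0502). Adcy1, another adenylyl cyclase, rose to 204 ± 23.6 in P4 horns, against 147 ± 13.9 in Oil horns (0.43 ± 0.11, adjusted p 0.0439). The regulatory subunits of protein kinase A moved in both directions, with Prkar2a higher (0.41 ± 0.10, adjusted p 0.0332) and Prkar1b lower (-0.54 ± 0.13, adjusted p 0.0353). The call of Adcy1 was lost without any 1 array other than P4 replicate 3 (up to 0.135), that of Prkar2a without any other than Oil replicate 1 (up to 0.0957) and that of Prkar1b without any other than P4 replicate 2 (up to 0.133). With the mean of their probe sets Adcy1 (0.29, 0.0625) and Prkar2a (0.26, 0.0608) did not pass by limma, nor did Adcy1 with median centring (0.0519). The gene added by the block was Pde3b, a phosphodiesterase that breaks down cyclic AMP, with 537, 675 and 661 in P4 horns, and 497, 516 and 468 in Oil horns. Its groups did not overlap (0.32 ± 0.11, limma adjusted p 0.0868, and 0.0452 with the block). With scaling to the hybridisation controls none of the 3 lower pathway calls passed by limma (Cbr1 0.0916, Adcy6 0.0589 and Prkar1b 0.116).

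**Figure D4:**
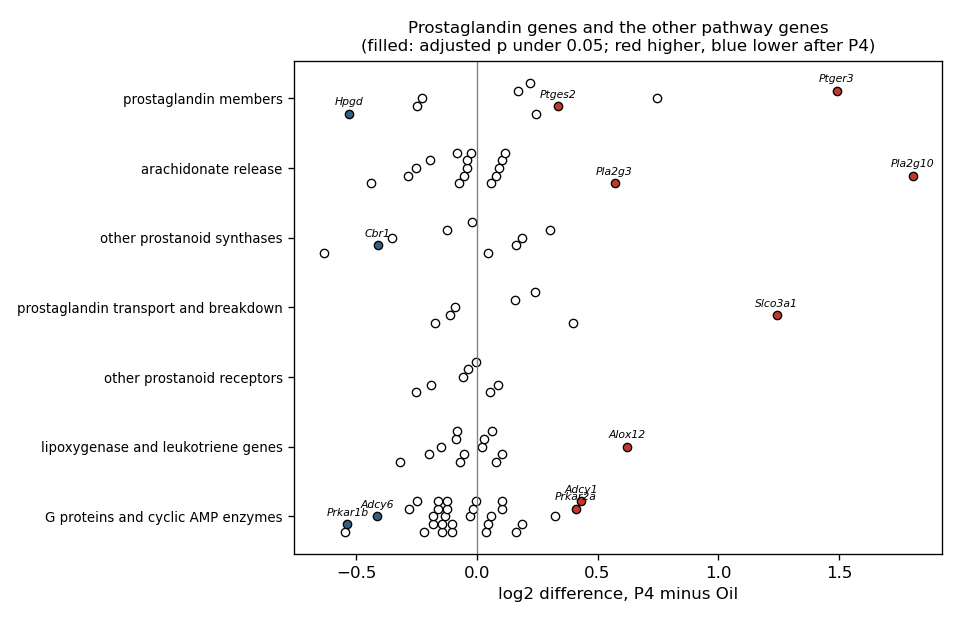
Log2 difference, P4 minus Oil, of the 9 measured prostaglandin genes and of 83 other pathway genes in 6 lists, 1 circle per gene; filled circles passed an adjusted p under 0.05. Pla2g10 (1.80), Ptger3 (1.49) and Slco3a1 (1.24) lie farthest to the right.

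For each gene that passed, the 3 genes with the highest Pearson correlation of log2 values over the 6 arrays were taken from 9091 genes of above-median brightness. The arrays share the same groups, so a gene with a steady difference between the groups scores high. For Ptger3 they were Cisd1 (0.999), Eif3d (0.998) and Igf1 (0.997). Igf1, the growth factor, read 3999, 6024 and 6761 in P4 horns, and 1441, 1373 and 1509.6 in Oil horns, so that P4 replicate 1 was the lowest P4 array for it as for Ptger3. For Hpgd they were Sap130 (0.998), Fam118a (0.998) and Fry (0.996). Sap130 read 473, 457 and 409 in P4 horns, and 628, 633 and 666 in Oil horns. For Ptges2 they were Tpst2 (0.999), Pes1 (0.998) and Ctla2a (0.997), of which Tpst2 (limma adjusted p 0.0584) and Pes1 (0.0618) did not themselves pass.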

How the data were processed

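The deposited table holds 1 linear intensity for each probe set on each of 6 arrays, hybridised with biotin-labelled cRNA per the labels' protocols. The authors' summary and scaling steps are not stated in the labels. Of 45101 probe sets 64 are controls, and 34945 had 1 gene symbol in the platform annotation, 932 several and 9160 none. Of the 34945, 34741 matched a RefSeq gene.

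No normalization was added, as array medians differed by 0.0591 log2. A gene was read from its probe set of highest mean. The log2(intensity + 16) values went into limma 3.58.1 (R 4.3.3), with a moderated fit that includes an intensity trend, adjusted by Benjamini-Hochberg over 18193 genes and, in another fit, over 45037 probe sets. The number of arrays limits precision. Data with 18193 genes were simulated, of which 200 were changed, with noise drawn independently for each gene and array. There the fit for P4 minus Oil recovered 34.6% of genes changed by 0.5 log2, 84.2% by 1 and 96.4% by 2. In the real data 13.0% of genes were called and arrays deviated together, so these shares are not the power of the real fit. Figures used matplotlib 3.10.9.

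Same-numbered arrays of the groups deviated together (correlations 0.53, 0.13 and 0.64, each over 0.1). P4 replicate 1 also correlated with Oil replicate 2, at 0.29, so the pairing of the arrays numbered 2 is weak. The replicate number was taken as a pairing from the data and not from a stated litter or day. It entered as a block in an alternative fit, and the main fit has no block. The block raised the genes called from 2368 to 3801. As the pairing was chosen on the same values, limma p-values with the block may be too small. Values with that block are given where they change the call of a prostaglandin probe set, another pathway gene or a named cell type marker.

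The members, lists, tests and alternatives were chosen with earlier results of these data known. The text names all members with every probe set, called genes of 6 pathway lists, 10 further pathway genes whatever their values, and the 3 genes most like each called member. Prxl2b, Pde3b and single cell type markers were named after their values were seen. Alternatives changed the scaling, the choice of probe set, the filter on dim genes, the pseudocount, the moderation, array weights, the block and the arrays included.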

Additional observations from a re-analysis of the deposited data

How the results depend on the processing

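With 3 arrays a group, small changes are hard to detect, and the 3 calls differ in how firm they are. Of all genes 1106 were higher and 1262 lower; scaling to the hybridisation controls gave 1838 and 628, the replicate block 1690 and 2111, leaving out both arrays numbered 2 gave 99 and 72, and leaving out 1 array gave 485 to 1075 higher and 508 to 1227 lower. Prostaglandin genes higher numbered 2, but 1 at an adjusted p under 0.01 and 1 with a pseudocount of 50. They numbered 1 without probe sets of suffix _x, _s or _a, 0 without both arrays numbered 2, and 1 to 2 without 1 array. The 1 lower gene became 0 without such probe sets and 0 without both arrays numbered 2, and stayed 1 to 1 without any single array. Other pathway genes higher numbered 6, but 0 without both arrays numbered 2 and 3 to 5 without 1 array; the 3 lower became 0 with hybridisation scaling, 5 with robust moderation, 5 with the replicate block, 0 without both arrays numbered 2, and 0 to 4 without 1 array. Prostaglandin probe sets higher numbered 1, but 3 with hybridisation scaling, 2 without the dimmest 50%, 3 with the replicate block and 1 to 2 without 1 array; the 1 lower became 0 without both arrays numbered 2. Without probe sets of suffix _x, _s or _a, the main Ptger3 set is dropped for its _a, which marks several transcripts of a gene. Ptger3 is then read from its other set, at -0.047. That set's difference was 0.057 with hybridisation scaling, 0.0011 without both arrays numbered 2, and -0.23 to 0.058 without 1 array. The dimmest Ptgfr set ran from -0.055 to 0.064 without 1 array. Hpgd too is read from its other set without probe sets of these suffixes, as its main set has the suffix _s. Fits that leave out arrays change both the number of arrays and which arrays are used. The cause of these shifts was not tested. The replicate block changed no call among the prostaglandin genes, but it did among their probe sets, as given above.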
